A study of Mus musculus with 2 samples.

Results

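Single-base m6A sites were described in the 8 mouse genes that encode the PSD-95 family of synaptic scaffolds (Dlg1, Dlg2, Dlg3 and Dlg4) and the SAPAPs that bind them (Dlgap1, Dlgap2, Dlgap3 and Dlgap4). A site was counted as a member when its position and strand fell inside the interval of 1 of these genes in GENCODE release M21 on GRCm38, the assembly that mm10 names. This rule took 833 of the 219409 sites found in either library, with 589 in the PSD-95 family and 244 in the SAPAPs. They comprised 158 of the 79355 sites of the cerebellum, 738 of the 188295 sites of the cerebrum and 63 of the 48241 sites found in both. The genes were chosen by name and the sites selected on the calls of these same libraries, so their counts are a description and were not tested.

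GLORI deaminates unmethylated adenosines with glyoxal and nitrite, so that a methylated adenosine is the base still read as A. It was applied to RNA from 1 cerebellum and 1 cerebrum sample, both from a female F1r hybrid at postnatal day 0, where F1r means that the mother was C57 and the father PWK. Each site is listed by its place and strand alone. Methylation rates and read counts are not part of the lists, so depth is unknown, and an unlisted adenosine can be unmethylated, unexpressed or thinly covered. With 1 library per tissue there was no replicate check, no difference between the tissues was tested, and the 95% Wilson intervals in parentheses cover counting error over sites only.

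m6A is deposited co-transcriptionally on mRNA, mostly at adenosines in the motif DRACH (D for any base but C, R for a purine, H for any base but G), and is known for its density in long exons and around stop codons. The PSD-95 proteins are membrane-associated guanylate kinases that anchor glutamate receptors and adhesion proteins at the postsynaptic density. Their guanylate kinase domain binds the SAPAPs (also called GKAPs), which connect them to Shank and Homer, and the mRNAs of several of these scaffolds are found in dendrites.

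The tissue labels were checked on marker genes. Exonic DRACH sites were found for all 12 forebrain markers in the cerebrum and for 4 of them in the cerebellum, with 162 sites against 12. Of 10 hindbrain markers, 7 had such sites in the cerebellum, compared with 4 in the cerebrum, with 70 sites against 42. En1, En2 and Barhl1 had sites in the cerebellum alone, and Atoh1, Skor2 and Pax2 had none in either library. Lhx1 (11 in the cerebellum against 1 in the cerebrum) and Rora (17 against 12) had more in the cerebellum. Zic1 had 14 in each library, and Zic4 went the other way, with 4 in the cerebellum against 15 in the cerebrum. In bulk tissue, fewer cells that express a gene and less of its RNA per cell cannot be told apart, and either can remove a site from a list.

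The exonic DRACH sites gathered at different places in the 2 families. In the PSD-95 family they lay in last exons but for 1 in a first exon, with 4 of 28 sites on coding isoforms in the coding part and 23 in the 3′ UTR part. Of these 23, 3 lay in the last exon of a short Dlg4 isoform and are intronic for its long isoforms. None lay in an internal exon, and in internal exons under 400 nt calls were few over all coding genes too, with 0.517% and 1.19% of DRACH adenosines called. In the SAPAPs 33 of 60 lay in internal coding exons, 27 of them in exons of 400 nt or more, and 24 in the 3′ UTR of the last exon. Dlgap4 carried the most sites and Dlg1 the fewest, and Dlg1 had none in the cerebellum.

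The sequences around the last codons of the PSD-95 genes are shown first, because 3 of the 4 genes carried a site there in both libraries. Each window is 21 nt of the GRCm38 sequence on the plus strand, 5′ to 3′, with the 5-mer centred on the site, or on the aligned base, in capitals. Codons are numbered throughout on the isoform with the longest coding sequence of each gene. The first set is the codon of Dlg2 at -36 nt from the last base of the stop codon (codon 946, chr7:92444571-92444591), which was called in both libraries, and its aligned codons in the paralogs, which were not called.
Dlg2: agcagtctGGACCtttcatct
Dlg1: aacagtctGGGCCttacatct
Dlg3: accagtctGGGCActacattt
Dlg4: acctctcaGGCCCctacatct
The 5-mer of Dlg2 was thus the DRACH motif GGACC, and none of the 3 aligned 5-mers was a DRACH motif.

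The second set is the penultimate codon, at -6 nt, which was called in both libraries in Dlg3 (codon 848, chrX:100816309-100816329) and in Dlg4 (codon 766, chr11:70044679-70044699). The aligned codons of Dlg1 and Dlg2 were not called.
Dlg3: cccctgaaAAACTctgaagaa
Dlg4: cccgagagAGACTctgattcc
Dlg1: cgaaagaaAAGCTatgaagac
Dlg2: caaaggagAAGTTataaatta
The called adenosine was the third base of its codon in both genes, and the 5-mers of Dlg1 and Dlg2 at this column, AAGCT and AAGTT, were outside DRACH.

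Over the whole coding sequence, the proteins translated from 1 isoform per gene were 67.2% to 74.8% identical within the PSD-95 family and 43.4% to 58.2% identical within the SAPAPs. The 4 coding DRACH sites of the PSD-95 family gave 12 combinations of a site with a paralog, of which 3 had a DRACH motif at the aligned base and 2 of these 3 were called. Those 2 are the Dlg3 and Dlg4 codons above, counted from each side. The remaining coding site, GGACC at -46 nt of Dlg3 in both libraries, aligned with AGACC in Dlg4, which was in neither list. For the SAPAPs, 98 of 105 combinations of a coding DRACH site with a paralog had an aligned codon, 21 of these held a DRACH motif and 8 of the 21 were called. These 8 also count each pair of called sites from both sides.

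The third set shows a SAPAP column with the same 5-mer called in a pair of paralogs, GGACC in exon 3 of Dlgap3 (codon 124) and of Dlgap4 (codon 106), found in both libraries in each gene. The columns of Dlgap1 and Dlgap2 were not called.
Dlgap3: acactcctGGACCagtttgaa
Dlgap4: aacctcctGGACCagtttgag
Dlgap2: aacctcttAGACCagtttgag
Dlgap1: aacctgctGGATCagtttgag
Dlgap2 held a DRACH motif here, AGACC, in an exon of 1070 nt whose other sites are described below. Dlgap1 held GGATC, which is outside DRACH.

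The fourth set is a column further along, GGACA at codon 610 of Dlgap1 and codon 613 of Dlgap4, again found in both libraries in each gene.
Dlgap1: gaaagtctGGACAgtatgaag
Dlgap4: gacagcctGGACAgcagtacc
Dlgap2: gacagtctAGACAgcaacaag
Dlgap3: gacgggctGGACGgccccacc
AGACA of Dlgap2 is a DRACH motif and was not called, and GGACG of Dlgap3 is not a DRACH motif. A further pair of columns was called in the cerebrum alone, at codon 235 of Dlgap1 with codon 325 of Dlgap2 and at codon 341 of Dlgap2 with codon 296 of Dlgap3. These sets were picked for their calls, so they describe where calls coincide and carry no rate of coincidence.

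**Figure D1:**
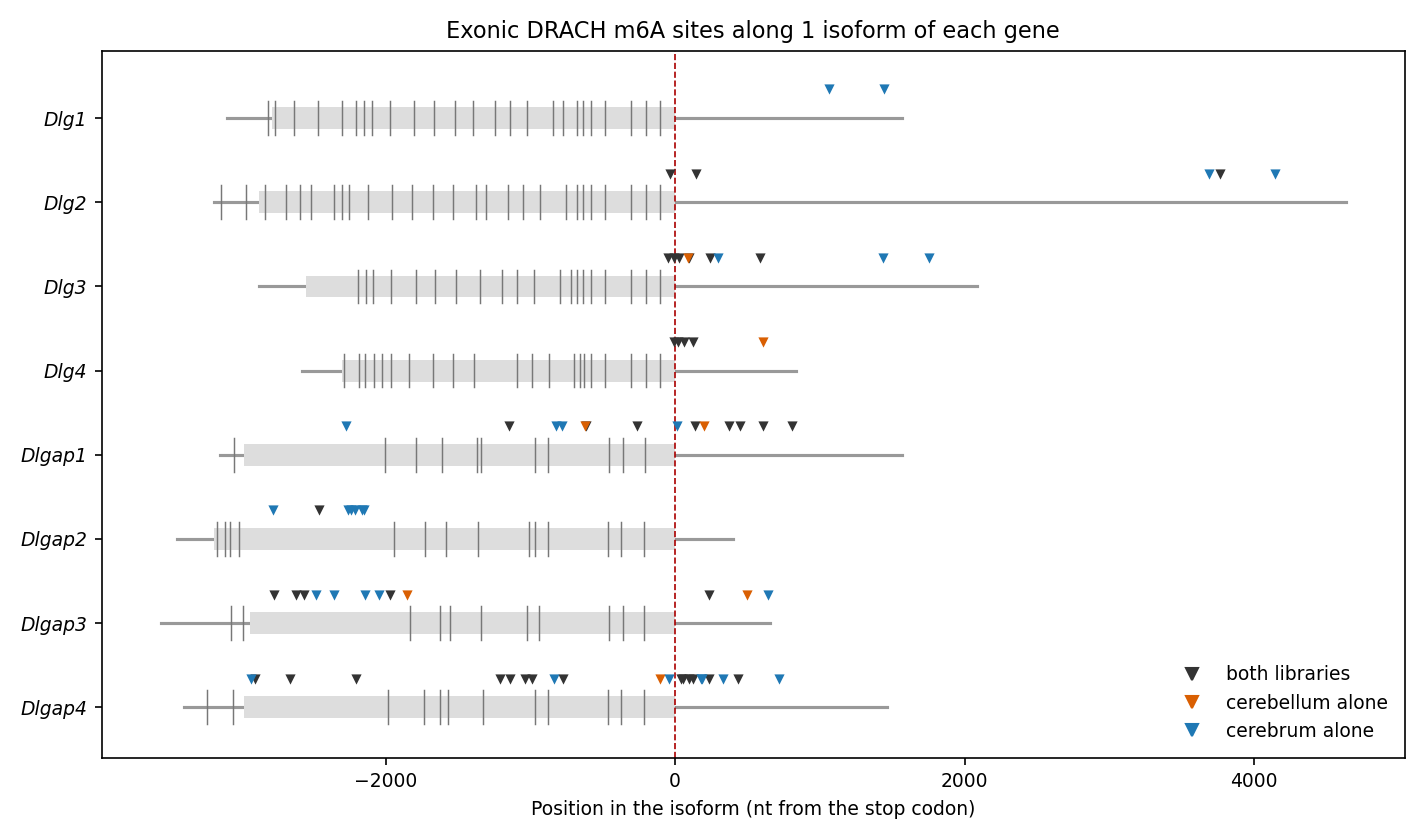
Exonic DRACH sites (triangles) along 1 isoform per gene, with the x axis in nt from the last base of the stop codon (dashed line). Grey boxes are coding sequence, lines are UTRs and ticks are exon junctions. Colours mark sites of both libraries, of the cerebellum alone and of the cerebrum alone. Of 93 exonic DRACH sites, 77 lie on these isoforms and are drawn. The sites of the PSD-95 family start at the end of the last exon's coding part, while Dlgap2, Dlgap3 and Dlgap4 also have several in the first long coding exon, where Dlgap1 has 1.

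The 8 genes held 93 exonic DRACH sites, with 53 in the cerebellum, 84 in the cerebrum and 44 in both. An exonic DRACH site was present in 7 of the 8 genes in the cerebellum, where 35.9% of 20715 coding genes had such a site, and in 8 of 8 in the cerebrum, where 46.2% had 1. The median count per gene was 6.5 for the cerebellum list and 9.5 for the cerebrum list, against 2 and 4 over the 9893 coding genes with an exonic DRACH site in either library. Of the members' cerebellum sites, 83.0% were also in the cerebrum (70.8% to 90.8%), close to 83.3% over all coding genes. In the other direction the share was 52.4% (41.8% to 62.7%), against 48.4% over all coding genes. Both shares of the members had intervals that include the value over all genes.

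Dlg4 encodes PSD-95 itself, the main scaffold of the mature postsynaptic density (chr11:70016942-70047522). It had 5 exonic DRACH sites in the cerebellum against 9 in the cerebrum, 4 of them shared. The 4 shared sites lay within 132 nt, at -6 nt (AGACT), 23 nt (GGACT), 60 nt (GGACT) and 126 nt (TGACT) from the stop codon. Its other sites were found in 1 library each. TAACT at 606 nt was in the cerebellum list, and TGACA at 1105 nt and GGACC at 1167 nt were in the cerebrum list. The remaining 3 sites, all from the cerebrum, lay in the last exon of an isoform with 8 exons (chr11:70031645-70037296, 5652 nt). That exon held 11 sites in all, 8 of them outside DRACH, and the 11 fall in no exon of the 7 long isoforms, for which they are intronic.

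Dlg3 encodes SAP102, the scaffold prominent at immature synapses (chrX:100767722-100818410). It had 7 exonic DRACH sites in the cerebellum against 9 in the cerebrum, with 6 shared, all in its last exon of 2190 nt. The shared sites stood at -46 nt (GGACC), -6 nt (AAACT), 29 nt (GAACA), 95 nt (TGACT), 241 nt (GGACC) and 585 nt (GGACT). The 3 sites found in the cerebrum alone lay further down, at 296, 1436 and 1755 nt. Between the first and the last of its sites within 200 nt of the stop codon, GAACA at 88 nt was in the cerebellum list alone.

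Dlg2 encodes PSD-93, also called Chapsyn-110 (chr7:90476672-92449247). It had 6 exonic DRACH sites in the cerebellum against 8 in the cerebrum, with 5 shared. On its coding isoforms, the shared sites were GGACC at -36 nt, AAACT at 142 nt and GGACT at 3764 nt, and the cerebrum added GGACT at 3686 nt and GGACA at 4145 nt. The 3 distal sites lay toward the far end of a 3′ UTR of 4630 nt. The other 4 sites were in a single-exon transcript annotated as a retained intron at the 5′ end of the gene (chr7:90476672-90479068), with 2 of them shared. The last coding exon of Dlg2 had 1 DRACH adenosine in its coding part, and that adenosine was called in both libraries.

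Dlg1 encodes SAP97, a scaffold of neurons and epithelial cells (chr16:31663443-31875129). Its 3 exonic DRACH sites were all in the cerebrum alone, AAACT in the 5′ UTR of an isoform with 23 exons and GAACT at 1066 and 1442 nt from the stop codon. In the cerebellum 0 of the 103 DRACH adenosines of the isoform with its longest coding sequence were called (0% to 3.60%), and in the cerebrum 2 were (1.94%, 0.534% to 6.81%). Dlg1 had 3 exonic sites outside DRACH in the cerebellum and 8 in the cerebrum.

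Dlgap4 encodes SAPAP4 (chr2:156613705-156764363). It had 16 exonic DRACH sites in the cerebellum against 21 in the cerebrum, with 14 shared, which placed it at percentile 93.8 and 91.9 of the coding genes with a site, ranked by this count. Coding sequence held 9 of its cerebellum sites and 11 of its cerebrum sites, and the 3′ UTR held 6 and 10. Exon 8, only 362 nt long, had 11 DRACH adenosines, and the 4 that were called were found in both libraries. Their windows are shown by codon because no other internal exon under 400 nt of the 8 genes held as many.
Dlgap4 codon 591: acctacctGGACAgtcaagac
Dlgap4 codon 613: gacagcctGGACAgcagtacc
Dlgap4 codon 648: tgaacaagGGACActgacgag
Dlgap4 codon 663: ccaaaaggAAACTgtcatcga
After the stop codon, 5 shared sites followed each other from 41 to 232 nt. The first of these, the shared site nearest to the stop codon, is printed with the other SAPAPs below.

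Dlgap1 encodes SAPAP1, also known as GKAP (chr17:69969073-70821413). It had 10 exonic DRACH sites in the cerebellum against 14 in the cerebrum, with 8 shared. Its coding sites were spread over 5 exons, with 4 of them in an exon of 422 nt (exon 11 of an isoform with 14 exons). The first long coding exon, of 1043 nt, held a single DRACH site, TGACC at codon 235, in the cerebrum. Its 3′ UTR held shared sites at 138, 370, 445, 610 and 805 nt from the stop codon.

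Dlgap3 encodes SAPAP3, the SAPAP of corticostriatal synapses whose loss causes compulsive grooming in mice (chr4:127169204-127237022). It had 7 exonic DRACH sites in the cerebellum against 10 in the cerebrum, with 5 shared. Exon 3, of 1152 nt, held all 9 of its coding DRACH sites, 5 of them from the cerebellum list and 8 from the cerebrum list. The called share of DRACH adenosines in its internal exons of 400 nt or more came to 20.8% for the cerebellum (9.24% to 40.5%) and 33.3% for the cerebrum (18.0% to 53.3%). The shares of that exon class over all coding genes, 13.3% and 21.6%, lie inside these intervals.

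Dlgap2 encodes SAPAP2 (chr8:14095865-14847680). Among the genes with cerebellum sites it had the most uneven pair of counts, 2 exonic DRACH sites in the cerebellum against 10 in the cerebrum. Both of its cerebellum sites were shared. The cerebrum count was 5 times the cerebellum count, against 1.29 to 1.80 times in the other 6 genes with cerebellum sites and 1.72 times over all coding genes. Its 7 coding sites all lay in exon 6 of 1070 nt, within 632 nt, and 1 of them, AAACT at codon 242, was also in the cerebellum. Called DRACH adenosines in that exon class were 1 of 37 in the cerebellum (2.70%, 0.479% to 13.8%), against 7 of 37 in the cerebrum (18.9%, 9.48% to 34.2%), so the intervals overlapped. The first interval includes the 13.3% and the second the 21.6% of all coding genes. More sites in the cerebrum than in the cerebellum was the order of 81.5% of coding genes with a site, and fewer that of 7.70%.

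**Figure D2:**
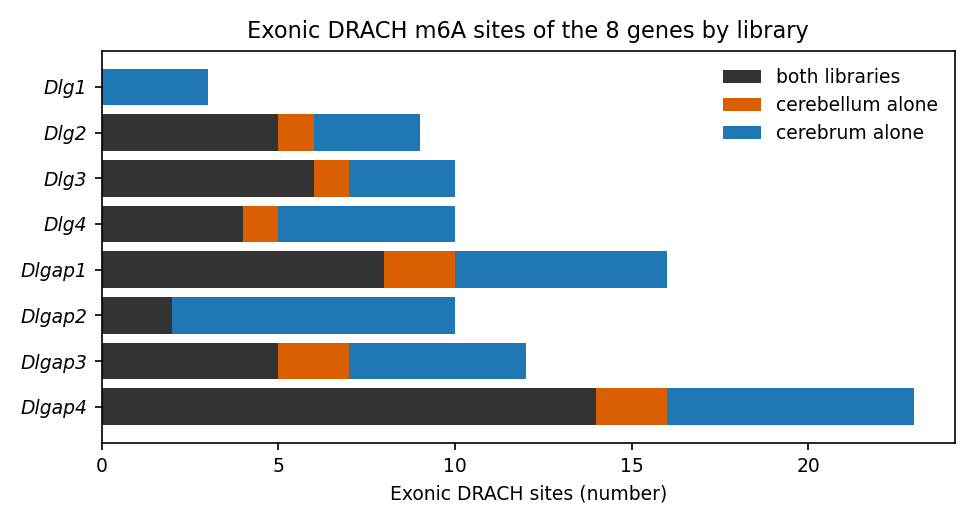
Exonic DRACH sites per gene (x axis, number), split into sites of both libraries, of the cerebellum alone and of the cerebrum alone. Dlgap4 has 23 sites, 14 of them in both libraries, and the 3 sites of Dlg1 are all of the cerebrum alone.

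For each SAPAP, the exonic DRACH site of both libraries nearest to the stop codon lay in the 3′ UTR, at 41 nt in Dlgap4 (chr2:156762934-156762954), 138 nt in Dlgap1 (chr17:70818362-70818382), 233 nt in Dlgap3 (chr4:127236591-127236611) and 716 nt in Dlgap2 (chr8:14847414-14847434). In Dlg2, Dlg3 and Dlg4 it lay in the coding sequence, in the windows given first, and Dlg1 had no shared site.
Dlgap4: atcattaaAAACTcaatgcaa
Dlgap1: cgcttcctGGACCactttgcc
Dlgap3: ctcacttgGAACTcccatctt
Dlgap2: aaaaacaaAAACTaagaaatt
No 5-mer was common to all 4 genes.

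Only 9 of the 93 exonic DRACH sites were found in the cerebellum alone, and they are printed because they are the exceptions to the larger cerebrum list. They came from 6 genes and every one of the 6 had shared sites as well.
Dlg2, 5′ transcript: tttattacGAACCatgtcgaa
Dlg3, 88 nt: cacggggaGAACAaatgacta
Dlg4, 606 nt: ggaaggtcTAACTgtggcttt
Dlgap1, codon 785: cctcctccGGACCcctggatt
Dlgap1, 197 nt: cctcatgcAGACAtccaaacc
Dlgap3, codon 362: caaagccaGGACTtatcacta
Dlgap3, 496 nt: gggcccagGGACCacagtggc
Dlgap4, retained intron: ccatagctGGACAtcctccag
Dlgap4, codon 959: ccagaaagAGACTcctggccg
GGACC was the 5-mer of 2 of these 9 sites, and the other 7 sites had 7 different 5-mers. Whether they differ in methylation or in coverage between the tissues was not tested.

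On coding exons, 11 of the 15 cerebellum DRACH sites of the PSD-95 family were in the 3′ UTR (73.3%, 48.0% to 89.1%) and 21 of 26 in the cerebrum (80.8%, 62.1% to 91.5%). Those 21 include the 3 Dlg4 sites in the last exon of its isoform with 8 exons. For the SAPAPs the shares were 15 of 34 (44.1%, 28.9% to 60.6%) and 22 of 55 (40.0%, 28.1% to 53.2%). The values over all coding genes, 57.3% and 55.7%, lay between those of the families. In the cerebrum the intervals of the families did not overlap, and in the cerebellum they did. Coding sequence held 19 of the 34 cerebellum sites of the SAPAPs and 33 of their 55 cerebrum sites, against 4 of 15 and 4 of 26 for the PSD-95 family.

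Within 200 nt of the stop codon lay 11 of the 15 PSD-95 family sites of the cerebellum (73.3%, 48.0% to 89.1%) and 11 of the 26 of the cerebrum (42.3%, 25.5% to 61.1%). Over all coding genes the shares were 22.0% and 22.1%, and for the SAPAPs 20.6% (10.3% to 36.8%) and 18.2% (10.2% to 30.3%). The interval of the PSD-95 family lay above the value over all coding genes in each library, and that of the SAPAPs included it.

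Against the DRACH adenosines available there on 1 isoform per gene, the families overlapped near the stop codon. Within 200 nt of it, 11 of 41 were called in the PSD-95 family in the cerebellum (26.8%, 15.7% to 41.9%) and 7 of 31 in the SAPAPs (22.6%, 11.4% to 39.8%), beside 11.1% over all coding genes. In the cerebrum, 10 of 41 (24.4%, 13.8% to 39.3%) and 9 of 31 (29.0%, 16.1% to 46.6%) were called, beside 18.9%. The intervals of the families overlapped in each library, and in the cerebrum both included the value over all coding genes.

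On 1 isoform per gene, 48 of 728 DRACH adenosines were called in the cerebellum (6.59%, 5.01% to 8.63%), against 70 in the cerebrum (9.62%, 7.68% to 12.0%), beside 5.18% and 8.87% of the DRACH adenosines of all coding genes with a site, which lie inside these intervals. By family, 15 of 419 were called in the PSD-95 family in the cerebellum (3.58%, 2.18% to 5.82%), against 20 in the cerebrum (4.77%, 3.11% to 7.26%). In the SAPAPs, 33 of 309 were called in the cerebellum (10.7%, 7.71% to 14.6%), against 50 in the cerebrum (16.2%, 12.5% to 20.7%). The SAPAP interval lay above the PSD-95 interval in both libraries. Dlgap4 gave 15 of the 33 SAPAP calls in the cerebellum and 21 of the 50 in the cerebrum, from 88 of the 309 adenosines. The comparison of the families was not repeated without this gene. Single genes did not all follow their family. In the cerebellum the shares of Dlg3 (7.45%) and Dlg4 (8.47%) were above that of Dlgap2 (1.23%). In the cerebrum Dlg3 (9.57%) was above Dlgap2 (8.64%). The lowest shares of the PSD-95 family were those of Dlg1 (0% and 1.94%) and Dlg2 (1.84% and 3.07%). These shares depend on which transcripts are expressed, which was not measured.

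The families differ in exon structure. The PSD-95 isoforms had 224 DRACH adenosines in internal exons under 400 nt and 0 in longer internal exons. None of the 224 was called in either library (0% to 1.69%), and the shares over all coding genes, 0.517% and 1.19%, lie inside this interval. The SAPAP isoforms had 115 DRACH adenosines in internal exons of 400 nt or more, of which 12 were called in the cerebellum (10.4%, 6.07% to 17.4%), against 25 in the cerebrum (21.7%, 15.2% to 30.1%), beside 13.3% and 21.6% over all coding genes, both inside these intervals. In SAPAP internal exons under 400 nt, 6 of 103 were called in each library (5.83%, 2.70% to 12.1%), above the shares of all coding genes. These 6 adenosines came from 2 genes, 2 from Dlgap1 and 4 from exon 8 of Dlgap4.

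**Figure D3:**
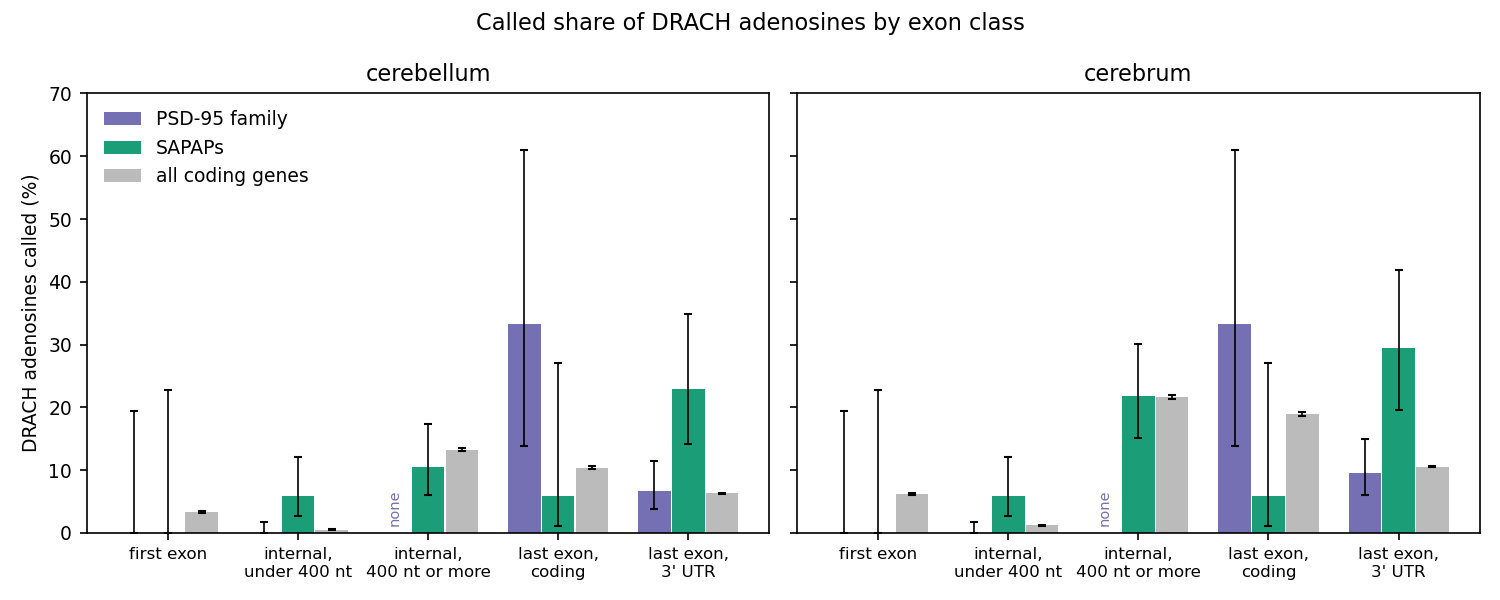
Share of DRACH adenosines called (y axis, %) by exon class in each library, for the PSD-95 family, the SAPAPs and all coding genes with a site. Bars start at 0, error bars are 95% Wilson intervals over adenosines, and "none" marks a class without DRACH adenosines. The PSD-95 family has no call in internal exons under 400 nt, and the SAPAPs have 10.4% and 21.7% called in longer internal exons.

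In the coding part of last exons, 4 of 12 DRACH adenosines of the PSD-95 family were called in each library (33.3%, 13.8% to 60.9%) and 1 of 17 of the SAPAPs (5.88%, 1.05% to 27.0%). Over all coding genes the shares were 10.4% in the cerebellum, below the interval of the PSD-95 family, and 18.9% in the cerebrum, inside it. Both lay inside the SAPAP interval. In the 3′ UTR part, the PSD-95 family had 11 of 167 called in the cerebellum (6.59%, 3.72% to 11.4%), against 16 in the cerebrum (9.58%, 5.98% to 15.0%), near the 6.30% and 10.5% of all coding genes. The SAPAPs had 14 of 61 (23.0%, 14.2% to 34.9%) and 18 of 61 (29.5%, 19.6% to 41.9%), above the values over all coding genes in both libraries. Most of these came from Dlgap1 (6 of 21 in each library) and Dlgap4 (6 and 10 of 22). Dlgap3 had 2 of 9 in each library and Dlgap2 0 of 9. The Dlgap2 isoform used here has a 3′ UTR of 400 nt, and 3 exonic DRACH sites of this gene lie off it. Near splice junctions a smaller share was called than farther away, as it was over all coding genes. Within 100 nt of a junction 8 of 378 DRACH adenosines of the 8 genes were called in the cerebellum (2.12%, 1.08% to 4.12%), beside 0.995% over all coding genes. The cerebrum had 10 of the 378 (2.65%, 1.44% to 4.80%), beside 2.03%. The value over all coding genes lay below the interval of the 8 genes in the cerebellum and inside it in the cerebrum. Farther away 40 of 350 were called in the cerebellum (11.4%, 8.51% to 15.2%), beside 7.67%, and 60 in the cerebrum (17.1%, 13.6% to 21.4%), beside 12.9%. Both of these values over all coding genes lay below the intervals.

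GGACC and GGACA were the leading 5-mers of the members, mostly through the SAPAPs. GGACC was the 5-mer of 16 of the 93 exonic DRACH sites (17.2%) and GGACA of 14 (15.1%), while over all coding genes GGACC made up 6.35% and GGACA 10.5%. SAPAPs contributed 12 of the 16 GGACC sites and 13 of the 14 GGACA sites. GGACT, the most frequent exonic DRACH 5-mer over all coding genes at 13.1%, was that of 10 sites of the 8 genes. Of the 13 SAPAP GGACA sites, 11 lay in coding sequence, and in 7 of these a G followed the 5-mer. How many uncalled GGACA adenosines have a G there was not counted. The called shares of GGACA and GGACC together and of GGACT had overlapping intervals. In the cerebellum, 15 of 131 GGACA and GGACC adenosines were called (11.5%, 7.06% to 18.0%), and 6 of 39 GGACT adenosines (15.4%, 7.25% to 29.7%). Of the other DRACH adenosines, 4.84% were called there (3.35% to 6.95%).

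Outside DRACH, the exons of the 8 genes held 17 cerebellum sites and 68 cerebrum sites, with 4 shared. Those 4 made up 23.5% of the cerebellum list (9.56% to 47.3%) and 5.88% of the cerebrum list (2.31% to 14.2%). Both intervals include the shares over all coding genes, 40.2% and 12.5%. Of the exonic sites, 75.7% of the cerebellum list were DRACH (64.5% to 84.2%) and 55.3% of the cerebrum list (47.3% to 62.9%), against 73.6% and 59.8% over all coding genes, both inside these intervals. In the cerebrum the share was 42.6% in the PSD-95 family (31.6% to 54.5%) and 65.5% in the SAPAPs (54.8% to 74.8%). These shares count exons of noncoding transcripts. Such exons held 4 cerebrum sites outside DRACH in Dlg1, 8 in Dlg2, 3 in Dlgap1 and 2 in Dlgap4. The PSD-95 share also counts the last exon of the Dlg4 isoform with 8 exons, with 8 sites outside DRACH over both libraries. The difference between the families was not recomputed without these exons. Of the 63 sites outside DRACH on coding exons, 8 lay within 10 nt of a splice junction, as did 0 of the 88 DRACH sites there. Over all coding genes these shares were 5.35% outside DRACH, below the interval of the 8 genes (12.7%, 6.58% to 23.1%), and 0.577% for DRACH, inside theirs (0% to 4.18%). Of all adenosines on 1 isoform per gene, 8.74% lay that close to a junction.

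Most sites of the 8 genes were intronic, and Dlg2 and Dlgap1 held most of these. In the cerebellum 88 of the 158 sites were intronic (55.7%, 47.9% to 63.2%) and in the cerebrum 586 of the 738 (79.4%, 76.3% to 82.2%), against 17.7% and 26.1% over all coding genes. The introns of Dlg2, 1.96 Mb in all, held 65 cerebellum sites and 440 cerebrum sites. Per Mb of intron, that was 33.2 and 225 sites, against 17.2 and 55.6 over all coding genes, expressed or not. Dlgap1 had 15.6 and 123 per Mb, and Dlgap2 6.71 and 18.8. Dlg4 had no intronic site in either library under the isoform rule used. That rule counts as exonic the 11 Dlg4 sites in the last exon of its isoform with 8 exons, which are intronic for the 7 long isoforms.

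**Figure D4:**
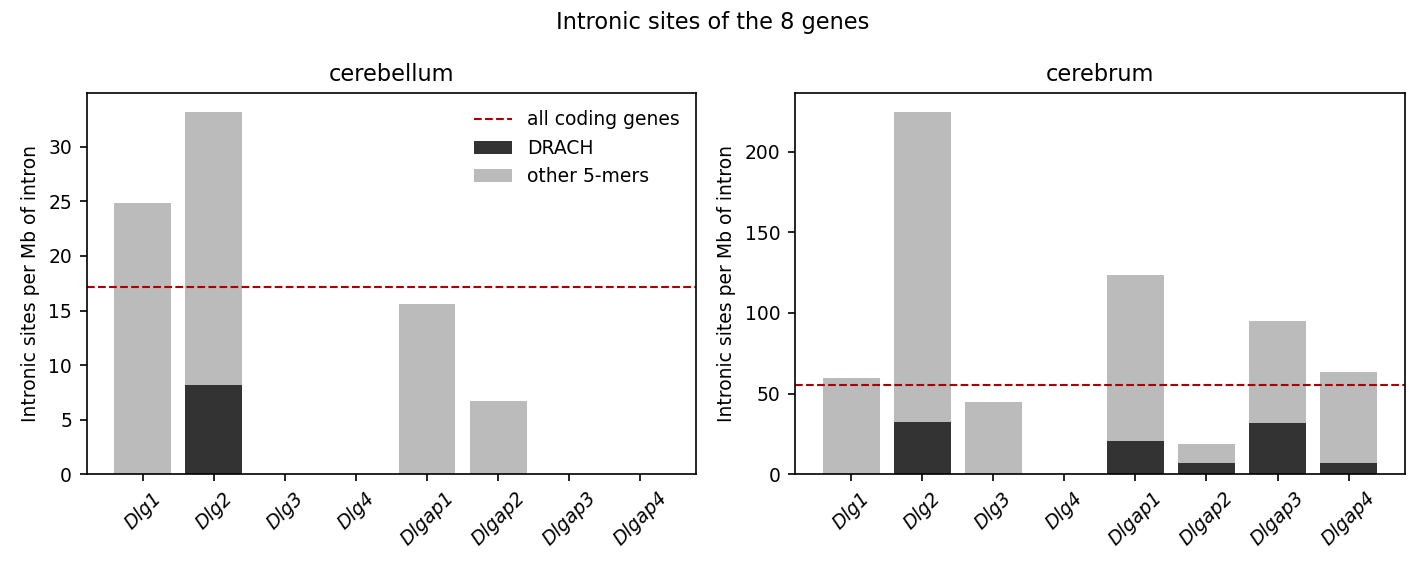
Intronic sites per Mb of intron (y axis, a different scale in each panel) for each gene, divided into DRACH and other 5-mers, in the cerebellum and the cerebrum. The dashed line is the value over all coding genes. The 11 Dlg4 sites in the last exon of its isoform with 8 exons count as exonic and are not drawn. Dlg2 stands at 33.2 in the cerebellum and 225 in the cerebrum, mostly outside DRACH.

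In Dlg2, 16 of the 65 intronic cerebellum sites and 63 of the 440 intronic cerebrum sites were DRACH. Of these, 10 of the 16 and 17 of the 63 lay in an exon of another gene annotated on the same strand. The lincRNA Gm45159 held 9 of them (7 in the cerebellum, 5 in the cerebrum and 3 in both), and Gm45179, annotated as a transcript still to be experimentally checked, held 10 (2, 10 and 2). All of these DRACH sites of both transcripts lay in repeat-masked sequence of the reference, as did 6 of the 47 Dlg2 intronic DRACH sites outside exons of other genes. The part of repeat copies in these calls was not tested. Among the 422 intronic Dlg2 sites outside DRACH, 64 lay at the A of ATC and 13 pairs were exactly 6 nt apart, with 0 pairs at 5 nt and 1 at 7 nt. Neither count has a background, because the context and spacing of the other intronic adenosines were not counted, so a preference was not tested. Repeat-masked sequence held 20.6% of these 422 sites (17.0% to 24.7%) and 30.3% of the intronic adenosines of Dlg2.

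Partners of these scaffolds were counted in the same way on a list of 40 postsynaptic genes, of which 39 were matched. An exonic DRACH site was found in 31 of them in the cerebellum and in 37 in the cerebrum, beside 35.9% and 46.2% of all coding genes. The partners had 433 and 669 sites, and over all coding genes the cerebrum count was 1.72 times the cerebellum count. More sites in the cerebrum was the order of 32 of the 39, and of 81.5% of all coding genes with a site. The NMDA receptor subunit Grin2b had the most, 49 and 57 sites, followed by the neuroligins Nlgn3 (39 and 49) and Nlgn1 (33 and 43), adhesion proteins that bind PSD-95. Dlgap5, a mitotic relative of the SAPAPs, and Lin7b had none in either library, and Homer2, Lin7a and Dynll2 followed with 2 each over both libraries. The medians of the list were 6 and 18, against 6.5 and 9.5 for the 8 genes.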

How the data were processed

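GLORI site lists of 2 libraries were used, 1 per tissue. Per the methods, GLORI-tools was run by the authors on mm10 and on an mm10 copy with PWK bases. Sites over a minimum rate and read count entered each list from either run. The deposited values are genomic positions, and they hold neither rates nor counts. The members and lists were chosen with earlier results of these data known.

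Positions were placed with GENCODE M21 gene models and the GRCm38 sequence (the C57 reference, so that PWK bases were not used here). This is not the GENCODE release that the study names. Isoforms annotated from 5′ UTR to 3′ UTR with start and stop codons took precedence, the longest first, then other exons, then introns. Called shares used 1 isoform per gene, that with the longest coding sequence. Proteins translated from the reference were aligned with MAFFT 7.526. Sequences were read with samtools 1.23.1 and pysam 0.24.0, and shares have 95% Wilson intervals from scipy 1.17.1. Alternatives were another isoform rule, motif (RRACH), stop codon window, long exon and junction limits, tolerance for shared sites, removal of sites near others or in second genes, and removal of each gene in turn. Placement was tested on simulated data: of 6080 simulated sites, the transcript region was recovered for 6080.

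The text names the 8 genes, the partner genes with the 3 highest and 3 lowest counts (ties included), and the sites nearest to the stop codon, of the cerebellum alone and at aligned codons. Windows of uncalled paralogs, the exon 8 windows of Dlgap4, codon positions, junction distances within 10 nt, 5-mer call shares and the genes inside Dlg2 introns were chosen after their values were seen.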

Additional observations from a re-analysis of the deposited data

How the results depend on the processing

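No paired analysis was possible because each tissue has 1 library. Of 114 values under alternative settings, 105 stayed inside the interval of the main share or, for counts, within 1.5 times the main count, and 9 did not. All of these values are for the 8 genes together, and the differences between the 2 families were not recomputed under any alternative. With all complete isoforms together, an alternative added after seeing the data, 4.46% of the members' DRACH adenosines were called in the cerebellum and 7.38% in the cerebrum. With long exons set from 200 nt, 0.365% of those in shorter internal exons were called in each library, since exon 8 of Dlgap4 and an exon of 371 nt of Dlgap1 then count as long. With a junction limit of 200 nt, 4.71% and 4.93% within it were called. Without Dlg2, 87 and 276 sites remained in all. Without Dlgap4, 7.66% of DRACH adenosines were called in the cerebrum. RefSeq exons, also added later, gave 51 and 80 exonic DRACH sites. The lists carry no depth, so the absence of a site has no detection limit.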

Other observations

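Dlgap2 had 7 sites of the cerebrum alone between 976 and 4617 nt past its GENCODE end, which the rule for members leaves out. All 7 lay in the last exon of 6 RefSeq transcripts that end 5746 nt further downstream, 5 of them were DRACH and the other 2 were GGACG, and no site of the cerebellum was found there. The RefSeq ends of Dlg2, Dlg3, Dlgap1, Dlgap3 and Dlgap4 were within 1 nt of the GENCODE ends.

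The 8 genes held 4 sites that had no A in the reference, 2 in introns of Dlg2 and 2 in introns of Dlgap1. All of them were G in GRCm38 and were found in the cerebrum alone.

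In the coding sequence of the SAPAPs, 8 of 37 DRACH adenosines at the third base of a codon were called in either library (21.6%, 11.4% to 37.2%), 23 of 143 at the second base (16.1%, 11.0% to 23.0%) and 4 of 43 at the first (9.30%, 3.68% to 21.6%). These intervals overlapped.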
